A study of Arabidopsis thaliana with 36 samples.

Results

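The gibberellin receptors of Arabidopsis thaliana are encoded by GID1A (AT3G05120), GID1B (AT3G63010) and GID1C (AT5G27320). Each was represented on the ATH1 array by 1 probe set that the annotation table pairs with that gene alone: 259302_at for GID1A, 251200_at for GID1B and 246782_at for GID1C. They are 3 genes of the 13286 named loci on the array, whose 22746 probe sets other than controls also hold unnamed ones, and all 3 entered the tests. Plants of 3 lines were grown on soil, and their apical region was sampled after 0, 3, 5 and 7 long days that followed short days, with 3 arrays in each of the 12 groups. FRI flc-3 carries the FRI allele of Sf-2 in Col together with flc-3, a fast-neutron allele of FLC. The flc-3 line has the same FLC allele in Col-0 without the Sf-2 FRI allele, and FRI has the Sf-2 FRI allele in Col with a functional FLC. FRI encodes an activator of FLC, and FLC is a repressor of flowering. The labels give a vegetative stage for all FRI arrays and for all arrays of day 0. They give a floral transition for FRI flc-3 at days 3, 5 and 7, and for flc-3 at days 3 and 5 and on replicate 1 of day 7, while replicates 2 and 3 of flc-3 at day 7 are labelled vegetative. All samples of days 3, 5 and 7 came later than day 0, so long days and plant age cannot be told apart.

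GID1 proteins are soluble receptors that bind bioactive gibberellin and then hold DELLA proteins, the repressors of the pathway (GAI, RGA and the RGL proteins). The bound DELLA is marked for degradation by an SCF ubiquitin ligase whose F-box subunit is SLY1, which releases growth and flowering. In Arabidopsis gibberellin promotes flowering most visibly in short days, and the receptors act with overlapping roles. Transcripts of the receptors are known to be higher where gibberellin is low, a feedback that runs through the DELLA proteins.

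Values are the deposited MAS5 signals, a linear intensity per probe set, and means of signals are on that scale. Log2 differences are between group means of log2 values, taken on each array after adding an offset of 1.62 to the signal. A difference is called where limma gave an adjusted p under 0.05 over the 14912 probe sets tested. Probe sets differ in brightness for the same amount of RNA, so levels are compared within a gene and not between genes. The array's own 40th percentile, between 19.8 and 24.8, served as the level under which a signal is named dim. GID1A exceeded it on 36 of 36 arrays and GID1B on 32. GID1C exceeded it on 5, and its mean lay under the average percentile of 22.4 in all 12 groups. In whole tissue, fewer cells of a type and less RNA per cell cannot be told apart.

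Array medians ran from 40.4 to 43.1. Within groups the lowest correlation between arrays was 0.979, between replicates 2 and 3 of FRI flc-3 at day 0. Replicate 3 was the one that stood apart. Of the meristem markers named in the table, LAS exceeded the 40th percentile on 36 arrays, UFO on 3 and CLV3 on 0. The photosynthesis genes RCA, PRK and LHCB4.1, 3 of 8 on their list, exceeded it on 36 arrays each, and the root gene EXP7 on 0. The summed signal of those 3 photosynthesis genes averaged 4051, 3863, 3497 and 2756 in FRI flc-3 at days 0, 3, 5 and 7. It averaged 4642, 3808, 3118 and 2802 in flc-3 and 4277, 4233, 3417 and 3306 in FRI at the same days. The summed signal of LAS, UFO and CLV3, 3 of 12 on the meristem list, averaged 41.0, 44.3, 49.2 and 59.5 in FRI flc-3 at days 0, 3, 5 and 7, with 46.6, 43.3, 61.8 and 74.2 in flc-3 and 40.9, 42.6, 56.0 and 50.6 in FRI. The mean photosynthesis sum fell at each step in every line, and the mean of GID1B rose at each of them. The mean meristem sum was higher at day 7 than at day 0 in every line, as GID1B was, but did not rise at each step. It was lower at day 3 than at day 0 in flc-3, and at day 7 than at day 5 in FRI. The sums of single arrays overlapped at both of these steps (35.9 to 49.3 against 41.2 to 51.4 in flc-3, 41.6 to 59.0 against 50.3 to 62.9 in FRI). Group means ran from 25.1 to 38.1 for LAS, from 1.34 to 24.7 for UFO and from 8.39 to 16.3 for CLV3. The part of cell composition, as these sums reflect it, in the changes of the receptors was not tested. FLC and FRI are not reported here by name.

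GID1B was the receptor with called changes in every line, at days 5 and 7. In all 3 lines its signal was higher at day 7 than at day 0, and no array of day 7 overlapped an array of day 0 of the same line. The share of all probe sets without such overlap was not counted, for this or for the later comparisons of genes. A lack of overlap is thus not shown to be particular to a gene. The plot of signals by line and day shows GID1B in its middle panel.

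In FRI flc-3, GID1B had 22.9, 28.5 and 31.7 at day 0, 27.6, 40.3 and 25.2 at day 3, 35.8, 35.2 and 45.3 at day 5, and 38.2, 42.4 and 45.3 at day 7. In flc-3 it had 29.4, 29.8 and 22.6 at day 0, 36.7, 26.8 and 44.4 at day 3, 35.9, 46.4 and 43.4 at day 5, and 43.5, 47.6 and 45.0 at day 7. In FRI it had 23.3, 18.6 and 22.0 at day 0, 24.5, 33.4 and 28.8 at day 3, 41.6, 36.2 and 39.7 at day 5, and 43.8, 47.8 and 52.4 at day 7. The arrays of day 5 lay above those of day 0 in every line. Those of day 3 overlapped day 0 in FRI flc-3 and flc-3, and lay just above it in FRI. The 4 dim values of this probe set all belonged to day 0.

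**Figure D1:**
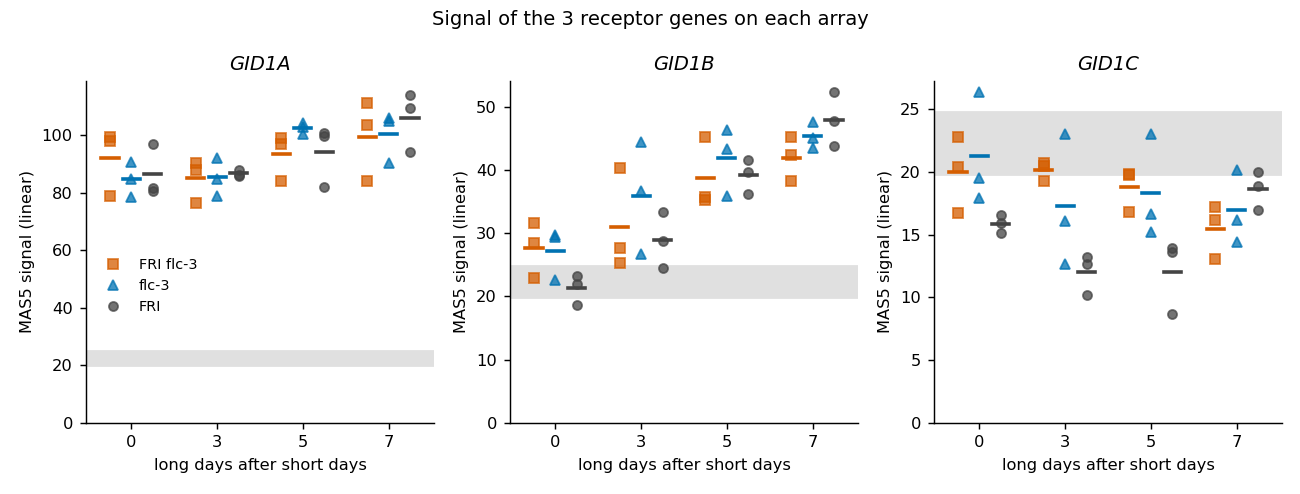
MAS5 signal (linear intensity) of GID1A, GID1B and GID1C on each of the 36 arrays by number of long days, with 1 panel per gene. Points are arrays of FRI flc-3, flc-3 and FRI, horizontal bars are means of 3 arrays, and the grey band is the range of the arrays' 40th percentiles (19.8 to 24.8). GID1B lies above the band on all arrays of days 5 and 7, and GID1C lies within or under it on all arrays but 1.

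At day 7 GID1B averaged 42.0 ± 3.6 in FRI flc-3, against 27.7 ± 4.5 at day 0 (SD, n = 3 each). The log2 difference was 0.58 ± 0.17 (SE; adjusted p = 0.00553, limma). Of all probe sets tested, 41% were called in that comparison in either direction, and 21.3% were called higher. In flc-3 the means were 45.4 ± 2.1 at day 7 and 27.3 ± 4.1 at day 0, a difference of 0.71 ± 0.17 (adjusted p = 0.000729, limma), where 46.2% of probe sets were called and 25.3% higher. The widest change was in FRI, with 48.0 ± 4.3 at day 7 and 21.3 ± 2.4 at day 0, a difference of 1.12 ± 0.17 (adjusted p = 3.87e-06, limma). There 26% of probe sets were called, and 13.9% were called higher. A log2 difference at least as high was found for 8.23% of probe sets in FRI flc-3, 6.46% in flc-3 and 0.771% in FRI. A call was thus common among all probe sets in each of these comparisons, while a log2 difference as high as that of GID1B in FRI was not. That difference started from a dim level, since 1 of 3 FRI arrays of day 0 exceeded the 40th percentile. At an offset of 64 it was 0.39, and it was not called larger than the response of another line.

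The change was already called at day 5 in each line. At that day GID1B differed from day 0 by 0.47 in FRI flc-3 (adjusted p = 0.0337, limma, 30.8% of probe sets called), by 0.59 in flc-3 (0.00465, 42.6%) and by 0.83 in FRI (0.000238, 28.9%). At day 3 no line passed the test, with differences of 0.14, 0.36 and 0.41 in FRI flc-3, flc-3 and FRI (adjusted p = 0.646, 0.124 and 0.112, where 16.7%, 23.4% and 13.3% of probe sets were called). Averaged over the 3 lines, GID1B was higher than at day 0 by 0.30 ± 0.10 at day 3, by 0.63 ± 0.10 at day 5 and by 0.80 ± 0.10 at day 7 (SE, 9 arrays against 9; adjusted p = 0.0138, 1.35e-06 and 1.09e-08, limma). In those comparisons 35.7%, 51.6% and 56.7% of probe sets were called. None of the 6 single steps, day 5 against day 3 or day 7 against day 5, was called, and 1 of the 6 had an unadjusted p under 0.05. For day 5 against day 3 the share of probe sets called was 9.04% in FRI flc-3, 16% in flc-3 and 8.17% in FRI. For day 7 against day 5 it was 14.8%, 9.62% and 2.35%.

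The GID1B differences between day 7 and day 0 were 0.21, 0.26 and 0.39 in FRI flc-3, flc-3 and FRI at an offset of 64, all called (adjusted p = 0.00483, 0.000474 and 3.99e-06). The FRI flc-3 change at day 7 was 0.46 without replicate 1 of day 0 (adjusted p = 0.0501) and 0.68 without replicate 3 of day 0, the array that stood apart (adjusted p = 0.00391). The FRI flc-3 call at day 5 was lost without replicate 1 or 2 of day 0 or replicate 3 of day 5 (0.34, 0.49 and 0.35; adjusted p = 0.174, 0.0542 and 0.171), and flc-3 was called at day 3 without its replicate 2 of that day (0.55, adjusted p = 0.0258).

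The 36 signals of GID1A ran from 76.6 to 114, and its highest group means were those of days 5 and 7. Averaged over the 3 lines it was higher at day 7 than at day 0 by 0.21 ± 0.06 (SE, 9 arrays against 9; adjusted p = 0.00416, limma). In that comparison 56.7% of all probe sets were called, and 24% had a log2 difference at least as high, so such a rise was common. The SE and adjusted p of means over the lines treat all arrays of a day as independent. For GID1A, arrays of 1 replicate number deviated from their group means alike in all 3 lines. Replicate 1 of day 7 deviated by 0.08 to 0.17 (log2), and replicate 2 by -0.23 to -0.15. Replicate 1 of day 5 deviated by -0.19 to -0.03. The precision of these means may thus be overstated, which was not tested. The mean differences at days 3 and 5 were -0.03 and 0.14 (adjusted p = 0.753 and 0.0609), and that of day 5 was called with a replicate block and with array weights (adjusted p = 0.045 and 0.0343).

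In FRI flc-3, GID1A had 98.2, 79.1 and 99.4 at day 0, 90.3, 76.6 and 88.1 at day 3, 84.2, 98.9 and 97.0 at day 5, and 111, 84.1 and 103 at day 7. In flc-3 it had 84.7, 78.7 and 90.6 at day 0, 79.0, 85.0 and 92.2 at day 3, 101, 103 and 104 at day 5, and 106, 90.4 and 105 at day 7. In FRI it had 97.0, 81.5 and 80.8 at day 0, 88.1, 86.0 and 86.3 at day 3, 82.0, 101 and 99.7 at day 5, and 114, 94.1 and 109 at day 7. Replicate 2 was the lowest array of day 7 in each line, and replicate 1 was the lowest of day 5 in each line. The labels do not say what arrays of 1 replicate number share.

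Of the 9 responses of GID1A to days 3, 5 and 7 in single lines, 2 were called, both higher. These were flc-3 at day 5, where 42.6% of all probe sets were called and 23.6% higher, and FRI at day 7, where 26% were called and 13.9% higher. A log2 difference at least as high was found for 23.8% of probe sets in the first and 15.6% in the second. In flc-3 at day 5 it averaged 103 ± 2.0, against 84.6 ± 6.0 at day 0 (SD, n = 3 each), a difference of 0.27 ± 0.11 (SE; adjusted p = 0.0386, limma), and the arrays did not overlap. In FRI at day 7 it averaged 106 ± 10.5, against 86.4 ± 9.1 at day 0, a difference of 0.29 ± 0.11 (adjusted p = 0.0464, limma), and the arrays overlapped. At day 7 FRI flc-3 stood at 0.11 and flc-3 at 0.24 (adjusted p = 0.458 and 0.066). Both calls lay close to the threshold. The FRI call was lost without replicate 2 or 3 of day 0 or replicate 1 or 3 of day 7 (0.25, 0.24, 0.23 and 0.26; adjusted p = 0.148, 0.164, 0.177 and 0.131), and the flc-3 call of day 5 without replicate 1 or 2 of day 0 or any replicate of day 5 (0.22 to 0.29; adjusted p = 0.0631 to 0.148). Conversely flc-3 at day 7 was called without replicate 2 of that day (0.31, adjusted p = 0.0332). The mean of the lines at day 5 was called without any of 6 arrays (FRI flc-3 day 0 replicate 1 or 3 or day 5 replicate 1, flc-3 day 0 replicate 3, FRI day 0 or day 5 replicate 1; 0.16 to 0.17, adjusted p = 0.0226 to 0.0463).

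**Figure D2:**
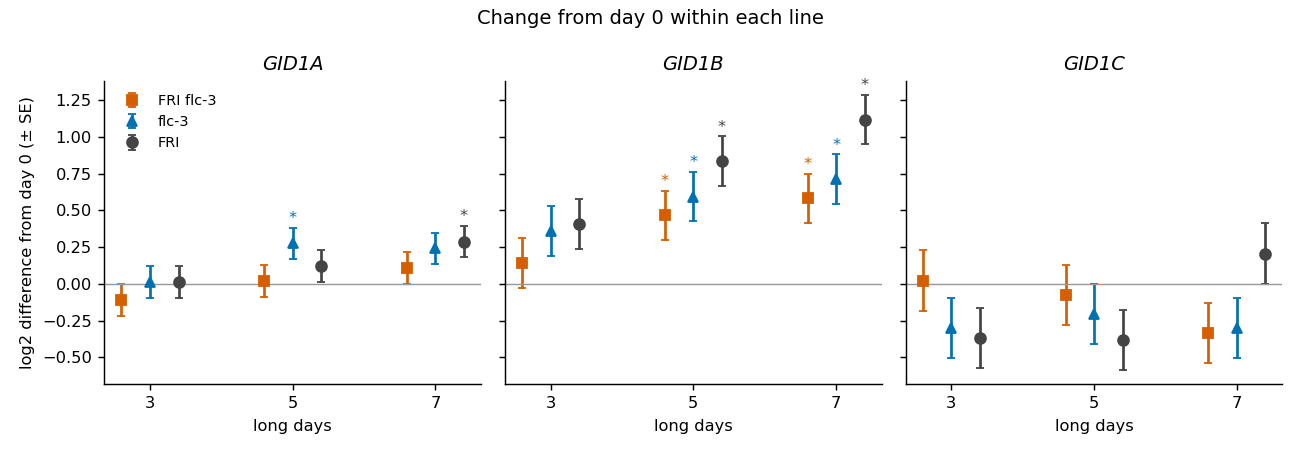
Log2 difference from day 0 of GID1A, GID1B and GID1C at days 3, 5 and 7 in each line, with SE from the fit across 14912 probe sets (3 arrays against 3). Asterisks mark called differences. GID1B reaches 0.58 in FRI flc-3, 0.71 in flc-3 and 1.12 in FRI at day 7.

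GID1C was dim and showed no called change with the day. In FRI flc-3 it had 16.7, 20.4 and 22.8 at day 0, 20.5, 19.3 and 20.7 at day 3, 19.8, 19.8 and 16.8 at day 5, and 16.2, 17.2 and 13.0 at day 7. In flc-3 it had 18.0, 19.6 and 26.4 at day 0, 23.0, 12.7 and 16.1 at day 3, 16.7, 15.3 and 23.0 at day 5, and 14.4, 16.2 and 20.2 at day 7. In FRI it had 15.9, 15.1 and 16.6 at day 0, 10.2, 13.2 and 12.7 at day 3, 13.9, 13.6 and 8.64 at day 5, and 18.9, 20.0 and 16.9 at day 7. In FRI flc-3 and flc-3 the means of day 7 were the lowest of their line, and in FRI the mean of day 7 was the highest of its line.

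The log2 differences of GID1C between day 7 and day 0 were -0.33 ± 0.20 in FRI flc-3, -0.30 ± 0.20 in flc-3 and 0.21 ± 0.20 in FRI (SE; adjusted p = 0.2, 0.239 and 0.512, limma). None of its 9 responses in single lines was called, and 0 of the 9 had an unadjusted p under 0.05. The largest step was in FRI from day 5 on, where day 7 minus day 5 was 0.59 (adjusted p = 0.144, limma). At such signals a difference depends on the offset, and none of these values shows that GID1C did not change.

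The comparison of FRI flc-3 with FRI asks what differs with the loss of FLC in plants that share the Sf-2 FRI allele. GID1C was the receptor with a called difference between these lines. As a mean over the 4 days it was higher in FRI flc-3, at 18.6 against 14.6 in FRI, a log2 difference of 0.33 ± 0.10 (SE, 12 arrays against 12; adjusted p = 0.0164, limma), where 21.2% of probe sets were called. The flc-3 line, with 18.4, was likewise above FRI, with 14.6, by 0.31 ± 0.10 (adjusted p = 0.0234, limma), where 26.8% were called. FRI flc-3 and flc-3 differed by 0.03 (95% confidence interval -0.18 to 0.23; adjusted p = 0.933), where 4.24% were called. Both comparisons with FRI share its 12 arrays. GID1C passed the filter only through arrays of FRI flc-3 and flc-3, the lines in which it was called higher, so its entry into these tests was not independent of the result.

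On the single days these differences were not all of one sign, and whether they varied between days was tested only for day 7 against day 0, where no call was made. For GID1C the difference of FRI flc-3 from FRI was 0.29 at day 0, 0.68 at day 3, 0.60 at day 5 and -0.25 at day 7 (adjusted p = 0.667, 0.0785, 0.0497 and 0.426, limma). The flc-3 line stood at 0.37, 0.44, 0.55 and -0.13 against FRI on the same days (adjusted p = 0.523, 0.415, 0.0546 and 0.672). Only FRI flc-3 against FRI at day 5 was called among the 12 comparisons of lines on a single day, with 18.8 ± 1.7 in FRI flc-3 and 12.0 ± 3.0 in FRI (SD, n = 3 each). In that comparison 11.9% of probe sets were called, and at days 0, 3 and 7 of the same lines 1.13%, 2.15% and 23.3% were. In flc-3 against FRI 0.999%, 1.76%, 19.5% and 28.2% were called at days 0, 3, 5 and 7, and in FRI flc-3 against flc-3 1.9%, 0.53%, 4.64% and 3.9%. On days 0, 3 and 5 no array of FRI flc-3 overlapped an array of FRI, while on day 7 they overlapped. At day 0 the gap was narrow, with a lowest array of 16.7 in FRI flc-3 and a highest of 16.6 in FRI. How many of all probe sets lacked overlap on these days was not counted. FRI flc-3 against FRI at day 3 was called without the trend and with array weights (0.68 and 0.72; adjusted p = 0.0353 and 0.0298), and flc-3 against FRI at day 5 under quantile normalization and without the trend (0.77 and 0.55; adjusted p = 0.00626 and 0.0296).

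All signals of GID1C in FRI were dim, and at an offset of 16 the mean differences were 0.18 for FRI flc-3 against FRI and 0.17 for flc-3 against FRI (adjusted p = 0.0175 and 0.0228). At an offset of 64 both were 0.07 (adjusted p = 0.0209 and 0.0246). Without FRI day 5 replicate 3 the day 5 difference of FRI flc-3 from FRI was 0.41 (adjusted p = 0.267; 0.56 to 0.69 and 0.0502 to 0.134 without FRI replicate 2 or any FRI flc-3 replicate of that day), that of flc-3 from FRI was called without flc-3 replicate 2 (0.66, adjusted p = 0.0477), and the mean difference of flc-3 from FRI was 0.26 (adjusted p = 0.0544), and 4 flc-3 arrays ended that second call too (day 0 replicate 3, day 3 replicate 1, day 5 replicate 3, day 7 replicate 3; 0.25 to 0.28, adjusted p = 0.0515 to 0.0574).

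**Figure D3:**
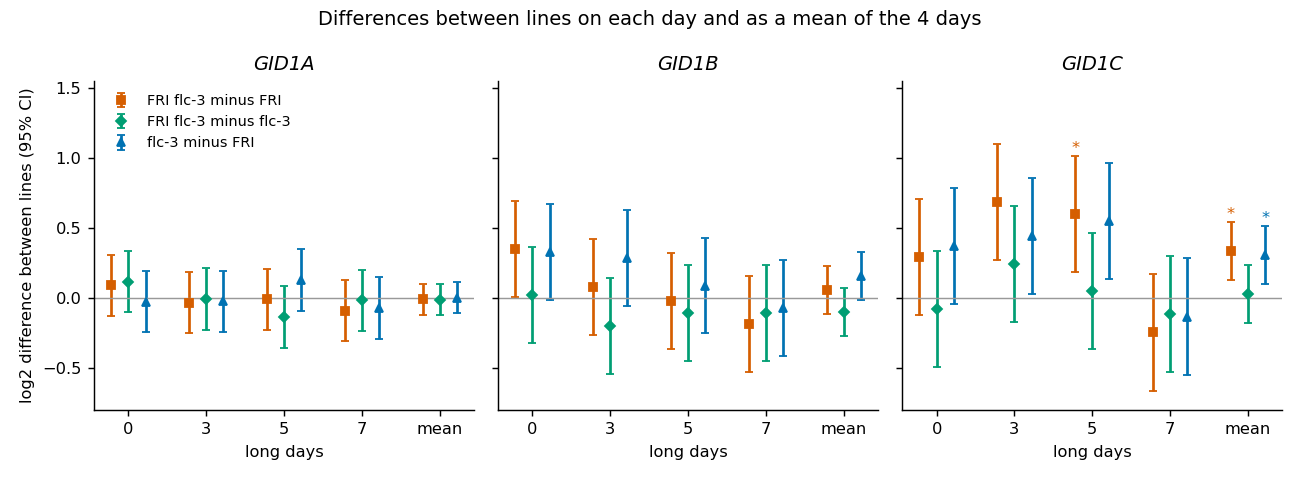
Log2 differences between lines for each receptor on each day (3 arrays against 3) and as means over the 4 days (12 against 12), with 95% confidence intervals. Asterisks mark called differences. The mean of GID1C lies above 0 in FRI flc-3 minus FRI (0.33) and in flc-3 minus FRI (0.31), the other means lie between -0.10 and 0.16, and at day 7 GID1C lies below 0 in both (-0.25 and -0.13).

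For GID1A and GID1B no difference between lines was called, either as a mean over the days or in the 12 comparisons on a single day. As means over the days GID1B differed by 0.06 between FRI flc-3 and FRI (95% confidence interval -0.12 to 0.23), by -0.10 between FRI flc-3 and flc-3 (-0.27 to 0.07) and by 0.16 between flc-3 and FRI (-0.02 to 0.33). The differences of GID1A were -0.01, -0.01 and 0.00, with all 3 intervals between -0.12 and 0.11. For these means 0 of 6 unadjusted p-values were under 0.05 (limma). On single days 0 were under 0.05 for GID1A and 1 for GID1B.

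Whether the day 7 response itself differed between lines was tested as the difference of the responses. No receptor was called, in comparisons where 12.7% (FRI flc-3 minus FRI), 2.84% (FRI flc-3 minus flc-3) and 17.3% (flc-3 minus FRI) of probe sets were. Of the 9 unadjusted p-values 1 was under 0.05, that of GID1B in FRI flc-3 minus FRI. For the GID1B response the difference of FRI flc-3 from FRI was -0.54 ± 0.24 (SE; 95% confidence interval -1.02 to -0.05; adjusted p = 0.156, limma), and flc-3 stood at -0.41 against FRI (-0.89 to 0.08; adjusted p = 0.26). Without FRI flc-3 day 0 replicate 3 the first of these was -0.44 (adjusted p = 0.288). GID1C differed by -0.54 and -0.51 in FRI flc-3 and flc-3 against FRI (adjusted p = 0.262 and 0.246), and GID1A by -0.18 and -0.05 (adjusted p = 0.522 and 0.876). The design left these differences with wide intervals, so the responses are not shown to be alike.

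Ordered by mean signal over the 12 groups, GID1B followed the day. FRI at day 7 was highest at 48.0, then flc-3 at day 7 at 45.4 and FRI flc-3 at day 7 at 42.0, and FRI at day 0 was lowest at 21.3. The groups of GID1A ran from 106 in FRI at day 7 to 84.6 in flc-3 at day 0. Those of GID1C ran from 21.3 in flc-3 at day 0 to 12.0 in FRI at day 3. For each gene all 11 pairs of neighbours in this order had arrays that overlapped. Neighbours were set side by side because their means were close, so this overlap says little about differences between groups.

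Over the 12 group means GID1A and GID1B had a Pearson correlation of 0.82, GID1A and GID1C one of -0.01 and GID1B and GID1C one of -0.06. Within groups, as deviations from the group mean over 36 arrays, the correlations were -0.18, -0.16 and 0.07 for the same pairs. The likeness of GID1A and GID1B thus lay in the group means, which share lines, days and arrays, and not in the scatter of single arrays.

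Among 8040 other loci, those with the pattern most like GID1B over the 12 group means were AT4G40050 (Pearson correlation 0.96), AT3G51250 (0.95) and AT5G28040 (0.95), and the least like was AT4G25740 (-0.95). For GID1A they were AT3G03790 (0.93), AT3G29075 (0.92) and AT4G32530 (0.91), with AT1G45230 the least like (-0.95). For GID1C the values were lower, with AT3G12340 (0.85), AT4G38500 (0.83) and AT5G63120 (0.81), and SETH2 (AT3G45100) the least like (-0.81).

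Beyond the receptors, 59 genes of gibberellin signalling and metabolism were listed. Of these 12 are named in the annotation table and 8 were tested. They comprise 4 of 4 genes of DELLA turnover and modification, 1 of 3 of transport, and 3 of 5 on a list of genes promoted by DELLA proteins. None of the 5 DELLA repressors, 14 synthesis genes, 11 inactivation genes and 10 transcription factors is named there, so these are not reported here. At day 7, 7 of the 8 were called in FRI flc-3, 7 in flc-3 and 5 in FRI, all higher than at day 0, where 21.3%, 25.3% and 13.9% of all probe sets were called higher. The median log2 difference of the 8 was 0.77, 0.79 and 0.41 in the same lines, against 0.00, 0.03 and 0.03 over all probe sets. At day 3 the counts were 2, 3 and 3, all higher, where 9.14%, 12.7% and 7.05% of probe sets were called higher. At day 5 they were 7, 6 and 5, all higher, where 16.3%, 23.6% and 15.2% were. The lists were chosen with earlier results of these arrays known.

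The F-box gene SLY1 was higher at day 7 than at day 0 in each line, as GID1B was. At day 3 SLY1 was already called in flc-3 (0.33, adjusted p = 0.018, limma) and FRI (0.35, adjusted p = 0.0203), where GID1B was not. SLY1 stood at 0.09 in FRI flc-3 at day 3 (adjusted p = 0.63) and was called in each line at day 5. It averaged 145 at day 7 and 109 at day 0 in FRI flc-3. The flc-3 line had 151 at day 7 and 99.1 at day 0, and FRI had 135 and 92.6. The log2 differences were 0.42, 0.60 and 0.54 (adjusted p = 0.00155, 1.43e-05 and 0.000157, limma), and the arrays did not overlap in any line. SNE, a relative of SLY1 that can act in its place, rose by 0.28, 0.30 and 0.56 in FRI flc-3, flc-3 and FRI (adjusted p = 0.0334, 0.0234 and 0.000137). SEC, an O-GlcNAc transferase that modifies DELLA proteins, rose by 0.24, 0.26 and 0.29 (adjusted p = 0.021, 0.0113 and 0.0109). SPY, an O-fucosyltransferase that acts on them, was not called in a single line, at 0.23, 0.07 and 0.22 (adjusted p = 0.0538, 0.602 and 0.082). In FRI flc-3 and flc-3 the calls of SNE and SEC were lost under quantile normalization (SNE 0.26 and 0.25, adjusted p = 0.0535 and 0.0626, SEC 0.19 and 0.20, adjusted p = 0.0706 and 0.0571) and under a common 75th percentile (SNE 0.24 and 0.23, adjusted p = 0.0849 and 0.0867, SEC 0.19 in both, adjusted p = 0.0596 and 0.055). In FRI flc-3 SNE was also lost with array weights and with only the arrays compared (0.27 and 0.28, adjusted p = 0.0623 and 0.143). In FRI flc-3 the SNE call was lost without day 0 replicate 1 or 3 or day 7 replicate 1 or 2 (0.19 to 0.30; adjusted p = 0.0503 to 0.208), the SEC call without day 0 replicate 1 or day 7 replicate 2 (0.22 and 0.21; adjusted p = 0.0646 and 0.0785), and SPY was called without day 0 replicate 1 (0.29, adjusted p = 0.0299). In flc-3 SNE was lost without day 0 replicate 2 or day 7 replicate 1 (0.29 and 0.23; adjusted p = 0.0576 and 0.119) and SEC without day 0 replicate 3 (0.22, adjusted p = 0.06), and in FRI SEC was lost without day 0 replicate 1 (0.25, adjusted p = 0.054).

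**Figure D4:**
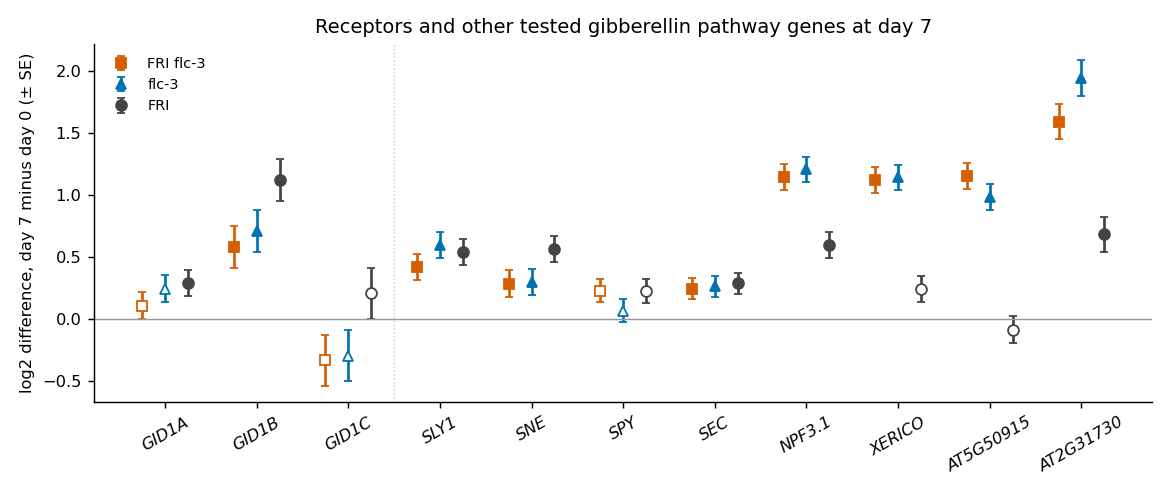
Log2 difference between day 7 and day 0 in each line for the 3 receptors and the 8 other tested genes of the list, with SE (3 arrays against 3). Filled markers are called. SLY1, SNE and SEC lie above 0 in all 3 lines, and XERICO and AT5G50915 lie near 1.0 in both flc-3 lines and lower in FRI.

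For the other 4 tested genes the response itself was called larger in FRI flc-3 than in FRI and larger in flc-3 than in FRI, and between FRI flc-3 and flc-3 none of the 8 was called (0 with an unadjusted p under 0.05, limma). Of all probe sets 6.28% were called higher in the comparison of FRI flc-3 with FRI, and 8.99% in that of flc-3 with FRI. Between FRI flc-3 and flc-3 2.84% were called in either direction, so the lack of calls there says little about these genes. NPF3.1 (AT1G68570), a transporter able to carry gibberellin, averaged 141 at day 7 and 63.5 at day 0 in FRI flc-3. The flc-3 line had 132 at day 7 and 56.2 at day 0, and FRI had 74.5 and 48.6. Its log2 differences were 1.14, 1.21 and 0.60 (adjusted p = 3.35e-11, 8.63e-12 and 3.43e-05, limma). XERICO, a RING-type protein that DELLA proteins promote and that raises abscisic acid, averaged 160.0 at day 7 and 72.9 at day 0 in FRI flc-3. The flc-3 line had 158 at day 7 and 70.7 at day 0, and FRI had 94.4 and 80.0. It rose by 1.12 and 1.14 in FRI flc-3 and flc-3 (adjusted p = 5.88e-11 and 3.46e-11) and stood at 0.24 in FRI (adjusted p = 0.0897), which was called at 0.33 without FRI day 0 replicate 3 (adjusted p = 0.0296). AT2G31730 and AT5G50915 were entered on the same list as XERICO, and the reference annotation gives them no symbol. AT2G31730 rose by 1.59, 1.94 and 0.68 in FRI flc-3, flc-3 and FRI, and AT5G50915 rose by 1.15 and 0.98 in FRI flc-3 and flc-3 and stood at -0.09 in FRI (adjusted p = 0.612).

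Between the lines, 4 of these 8 genes were called higher in FRI flc-3 than in FRI as means over the days, and 4 were called higher and 1 lower in flc-3 than in FRI. Of all probe sets 10.1% were called higher in the first of these comparisons, and 13.5% higher and 13.3% lower in the second. NPF3.1 was above FRI by 0.45 in FRI flc-3, and flc-3 was above FRI by 0.41 (adjusted p = 1.56e-08 and 1.07e-07, limma). The gene called lower was SEC, at -0.12 in flc-3 against FRI (adjusted p = 0.0275), a call lost without any of 5 arrays (FRI day 0 replicate 3, day 3 replicate 2 and day 5 replicate 1, flc-3 day 0 replicate 3 and day 3 replicate 1; -0.11 to -0.10, adjusted p = 0.0514 to 0.0681). XERICO was among those called higher in FRI flc-3, at 0.15 (adjusted p = 0.0341), a call lost under a common 75th percentile (0.14, adjusted p = 0.0514) and when any of 11 arrays was left out (0.13 to 0.15; adjusted p = 0.0515 to 0.0794), 6 of them FRI arrays (day 0 replicates 1 and 2, day 3 replicate 1, day 5 replicate 3, day 7 replicates 1 and 2) and the others FRI flc-3 arrays (day 0, 3 and 5 replicate 2, day 7 replicates 1 and 2). SLY1 was called in flc-3 against FRI without flc-3 day 5 replicate 1 (0.13, adjusted p = 0.0457). Between FRI flc-3 and flc-3 none of the 8 was called, and 2 had an unadjusted p under 0.05 (limma). In that comparison 4.24% of all probe sets were called, so the lack of calls says little about these genes.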

How the data were processed

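The authors deposited 1 signal intensity per probe set and array on a linear scale, made with MAS5 per the submitters' processing notes. Its version and scaling target are not given in the sources used here, and no detection calls were used. The 36 arrays are 1-colour ATH1 arrays, and their number limits the precision. Line and stage were taken from the sample labels and the long days from their protocols. Values were taken to log2 after adding 1.62 (their 10th percentile). A probe set was tested where it exceeded the array's 40th percentile on at least 3 of 36 arrays, which left 14912 of 22746. Of 22810 probe sets 64 were controls.

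Group means were fitted with limma 3.58.1 (R 4.3.3), which left 24 residual degrees of freedom, and variances were moderated by eBayes with a trend on intensity. Two-sided p-values had a Benjamini-Hochberg adjustment over all 14912 probe sets for each comparison, not over the 36 comparisons made per gene. They measure the spread between these samples, since the labels do not say whether replicates came from separate plants. Means over the lines were added after values had been seen.

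The annotation lists 14016 probe sets, of which 13513 have 1 gene, 503 have several, and 13436 matched a locus of the reference. Where a locus had several tested probe sets, the brightest was taken. Likeness was the Pearson correlation over group means of log2 values, with the 3 highest and the lowest locus named. Every tested gene of the list of 62 gibberellin genes is named. The receptors and lists were chosen with earlier results of these data known. The procedure was tested on simulated data. Alternatives were other offsets, quantile normalization, a common 75th percentile, filtering at the 60th percentile or not at all, a replicate block, no trend, array weights, fits of only the compared arrays, and each array left out.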

Additional observations from a re-analysis of the deposited data

Results flagged for a closer look

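The day 7 response of 4 genes on the gibberellin list differed between lines by a test of the difference itself (limma, adjusted over 14912 probe sets), where 6.28% of all probe sets were called higher in FRI flc-3 minus FRI and 8.99% in flc-3 minus FRI. For NPF3.1 the response exceeded that of FRI by 0.55 in FRI flc-3 (adjusted p = 0.00945) and by 0.61 in flc-3 (adjusted p = 0.00305), as log2 differences. The first was 0.40 without FRI flc-3 day 0 replicate 2 (adjusted p = 0.0555), and it was not called when only the compared arrays were fitted (0.55, adjusted p = 0.0725). For XERICO the excess over FRI was 0.88 in FRI flc-3 (adjusted p = 3.22e-05) and 0.90 in flc-3 (adjusted p = 2.11e-05). For AT5G50915 it was 1.24 in FRI flc-3 (adjusted p = 1.3e-07) and 1.07 in flc-3 (adjusted p = 2.13e-06), and for AT2G31730 it was 0.91 and 1.26 (adjusted p = 0.00142 and 1.47e-05). Both comparisons share the FRI arrays. None of the 8 genes differed in this way between FRI flc-3 and flc-3 by a call, and 0 had an unadjusted p under 0.05. There 2.84% of all probe sets were called in either direction.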

How the results depend on the processing

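Of 1116 receptor values recomputed under other settings 26 changed their side of the threshold, and of 972 values with 1 array left out 32 did. No called value changed direction. Of the 15 called receptor results 9 kept the call in every setting and left-out array that gave a value and 6 lost it in at least 1, and of the 93 uncalled results 5 gained a call in at least 1. The FRI response of GID1A at day 7 was not called under quantile normalization (0.26, adjusted p = 0.0664), a common 75th percentile (0.26, 0.0599), no filter (0.29, 0.0664), eBayes without the trend (0.29, 0.0513) or with only the arrays compared (0.29, 0.0719). The flc-3 response of GID1A at day 7 was called with a replicate block (0.24, adjusted p = 0.0495) and with array weights (0.26, 0.0397). Leaving out 1 array gave 0.23 to 0.37 for the first and 0.19 to 0.31 for the second. It gave 0.46 to 0.68 for GID1B in FRI flc-3 at day 7 and 0.25 to 0.35 for GID1C in flc-3 minus FRI. The GID1B calls of day 7 held at every offset, with 0.41, 0.51 and 0.78 in FRI flc-3, flc-3 and FRI at an offset of 16 and 0.21, 0.26 and 0.39 at 64. The day 5 call of GID1C in FRI flc-3 minus FRI was lost at offsets of 16 and 64, and with no filter, a common 75th percentile, the replicate block, array weights or only the arrays compared (0.12 to 0.60, adjusted p = 0.0539 to 0.171). The day 5 call of GID1B in FRI flc-3 was lost with a common 75th percentile (0.44, adjusted p = 0.0504), no filter and only the arrays compared, and that of GID1A in flc-3 with quantile normalization (0.22, 0.0965), a common 75th percentile and no filter. Of 792 values of the other gibberellin genes 14 changed their side of the threshold, with no called value reversed: SNE and SEC at day 7 in FRI flc-3 and flc-3, XERICO in FRI flc-3 minus FRI and the NPF3.1 response in FRI flc-3 minus FRI lost calls, and SPY in FRI flc-3 gained one at an offset of 64 (0.16, adjusted p = 0.0496) and with the filter at the 60th percentile (0.23, adjusted p = 0.0489). The causes were not tested. A filter at the 60th percentile left 10399 probe sets, without GID1B and GID1C. Over all probe sets, 13 of 198 pairs of same-numbered samples had deviations that correlated over 0.1 (median -0.0019, range -0.15 to 0.36). Of 396 pairs with different numbers 20 did (median 0.0008, range -0.24 to 0.15). With both medians near 0 the numbers were not taken to pair samples, although the highest correlation was between samples of the same number. Those samples differed in both line and day. Of the 90 same-numbered pairs that shared a line or a day, 4 correlated over 0.1 (median -0.0098, range -0.13 to 0.13). For GID1A alone each replicate number deviated with one sign in all 3 lines at days 5 and 7 (replicate 2 of day 7 by -0.23 to -0.15). The replicate block moved the counts of calls by a ratio of 0.89 to 1.05. For dim probe sets such as GID1C the signal over background limits what can be told.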
